A study of Mus musculus with 16 samples.

Results

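The urea cycle genes described here are 9 genes chosen by symbol, of 50559 symbols in the deposited table of mouse liver RNA-Seq: Nags, Cps1, Otc, Ass1, Asl, Slc25a15, Slc25a13, Gls2 and Glud1. All 9 were measured and passed the filter on low counts, which kept 18335 genes. The values are expected counts of reads per gene, which summed to between 24317111 and 35820234 per library. The 16 libraries came from male C57BL/6J mice, 4 per group, that were 6 weeks old at the start and stayed on their diet for 10 weeks, with treatment during the last 4. Mice on a low-fat diet (LFD, called chow in the labels) and on a 60% high-fat diet (HFD) received a luciferase control siRNA (10 mg/kg, given every 2 weeks) and, 2 times per day, methylcellulose by gavage. HFD + siRNA mice were fed the same high-fat diet and received a hepatocyte-targeted (GalNAc-conjugated) siRNA against ketohexokinase (KHK) at 20 mg/kg together with methylcellulose. HFD + Inhib mice were fed the high-fat diet, kept the control siRNA, and received the KHK inhibitor PF-06835919, which reaches other organs too, at 15 mg/kg 2 times per day. KHK phosphorylates fructose, and the study asked how removing the protein differs from blocking its kinase activity. The mice were given saline or insulin shortly before the tissue was taken, and which library had which is not given in the sources used here.

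The urea cycle turns ammonia into urea, and its complete form is a task of hepatocytes, above all those around the portal vein. In mitochondria, N-acetylglutamate made by NAGS switches on CPS1, which joins ammonia and bicarbonate into carbamoyl phosphate, and OTC passes that group to ornithine to give citrulline. In the cytosol ASS1 joins citrulline to aspartate and ASL splits the product into arginine and fumarate, after which urea is released and ornithine returns to the cycle. SLC25A15 carries ornithine and citrulline across the inner mitochondrial membrane, SLC25A13 (citrin) brings aspartate out, and GLS2 and GLUD1 release ammonia from glutamine and glutamate.

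RefSeq promoter windows were found for 6 of the 9 genes (Ass1, Nags, Otc, Glud1, Slc25a13 and Slc25a15) and not for Cps1, Asl and Gls2. The 250 bases before the start are shown for 4 genes that took different courses below: Ass1 and Nags, which were lower after the inhibitor than after the siRNA, Slc25a13, which was higher on the high-fat diet, and Otc, whose call depended on the processing. The windows, 5′ to 3′ on the strand of the gene in GRCm38.p6, are chr2:31470020-31470269 (+) for Ass1, chr11:102145263-102145512 (+) for Nags, chr6:6217174-6217423 (-) for Slc25a13 and chrX:10252055-10252304 (+) for Otc. Capitals mark matches on either strand to 4 letter strings, which are CACGTG (the E-box), AGGTCA (a nuclear receptor half-site), CCAAT (the CCAAT box) and TATAA (the TATA box).
Ass1: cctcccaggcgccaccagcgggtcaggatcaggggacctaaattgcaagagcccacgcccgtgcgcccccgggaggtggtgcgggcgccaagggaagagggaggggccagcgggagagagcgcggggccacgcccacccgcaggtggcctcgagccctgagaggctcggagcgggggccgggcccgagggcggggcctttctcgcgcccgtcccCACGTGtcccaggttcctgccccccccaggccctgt
Nags: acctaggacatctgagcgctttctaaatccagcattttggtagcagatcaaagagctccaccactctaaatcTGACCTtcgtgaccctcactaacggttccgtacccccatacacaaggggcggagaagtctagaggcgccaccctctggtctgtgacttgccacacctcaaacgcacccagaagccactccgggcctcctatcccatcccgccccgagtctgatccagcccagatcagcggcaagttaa
Slc25a13: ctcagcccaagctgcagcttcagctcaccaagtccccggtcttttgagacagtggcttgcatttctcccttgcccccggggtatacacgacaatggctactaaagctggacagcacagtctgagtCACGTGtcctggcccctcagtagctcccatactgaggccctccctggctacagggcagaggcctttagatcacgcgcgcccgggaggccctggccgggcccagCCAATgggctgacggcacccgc
Otc: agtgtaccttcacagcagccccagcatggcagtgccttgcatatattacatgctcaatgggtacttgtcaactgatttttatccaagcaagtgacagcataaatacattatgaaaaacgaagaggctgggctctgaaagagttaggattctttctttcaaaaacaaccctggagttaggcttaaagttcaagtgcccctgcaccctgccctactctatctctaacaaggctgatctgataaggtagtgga
The Ass1 window was 75.6% G or C and held an E-box that begins 36 bases before the start, where 6.02% of all 32851 windows hold one. The Nags window held a half-site on the reverse strand (178 bases before the start, 14.0% of windows), and the Slc25a13 window an E-box (125 bases before) and CCAAT (22 bases before, 33.8% of windows). The Otc window was 43.6% G or C and held none of the 4 letter strings, of which TATAA is present in 22.8% of windows. A match is a description of letters and not of binding.

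Khk, the gene aimed at by the siRNA, was read first. Its level in CPM (reads scaled to the library total, with TMM factors) was 11.8, 9.14, 18.1 and 11.5 in the HFD + siRNA libraries and 250.7, 322.5, 232.7 and 250.6 in the HFD libraries. It was 111.7, 151.9, 94.6 and 120.5 in the HFD + Inhib libraries and 213.9, 233.0, 349.3 and 268.7 in the LFD libraries. Khk was thus lowest in the libraries labelled for the siRNA, with a log2 fold change against HFD of -4.38 ± 0.23 (SE, adjusted p = 1.88e-08), and was also lower than in HFD with the inhibitor (-1.14 ± 0.20, adjusted p = 7.52e-04).

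5 libraries stood apart within their groups for the urea cycle genes, so calls that change without them are also given that way. LFD replicate 1 was highest of its group for Ass1, Nags and Gls2, HFD replicate 2 was lowest of its group for Cps1, Ass1, Asl, Otc and Gls2, and HFD + siRNA replicate 1 was highest of its group for Cps1, Ass1, Asl and Gls2. HFD + Inhib replicate 3 was lowest of its group for every member except Glud1, and HFD + Inhib replicate 1 was highest for Cps1, Otc, Ass1, Asl, Slc25a15 and Gls2 and lowest for Glud1. The 9 genes together made up 0.928% to 1.09% of the counts in LFD, 0.852% to 1.04% in HFD, 0.968% to 1.23% with the siRNA and 0.547% to 0.753% with the inhibitor. Per kilobase of transcript, the LFD levels ran from Ass1 (1559 ± 371 CPM per kb, SD, n = 4) through Cps1 (1021 ± 71.2), Glud1 (256.3 ± 13.6), Asl (150.9 ± 17.0), Otc (130.1 ± 13.5), Gls2 (124.7 ± 39.8), Slc25a15 (86.3 ± 8.02) and Slc25a13 (63.3 ± 7.40) to Nags (28.7 ± 6.81). The ranges of mean ± SD of Asl, Otc and Gls2 overlapped, as did those of Gls2 and Slc25a15. Nags, the activator of the cycle's first step, was the least abundant.

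**Figure D1:**
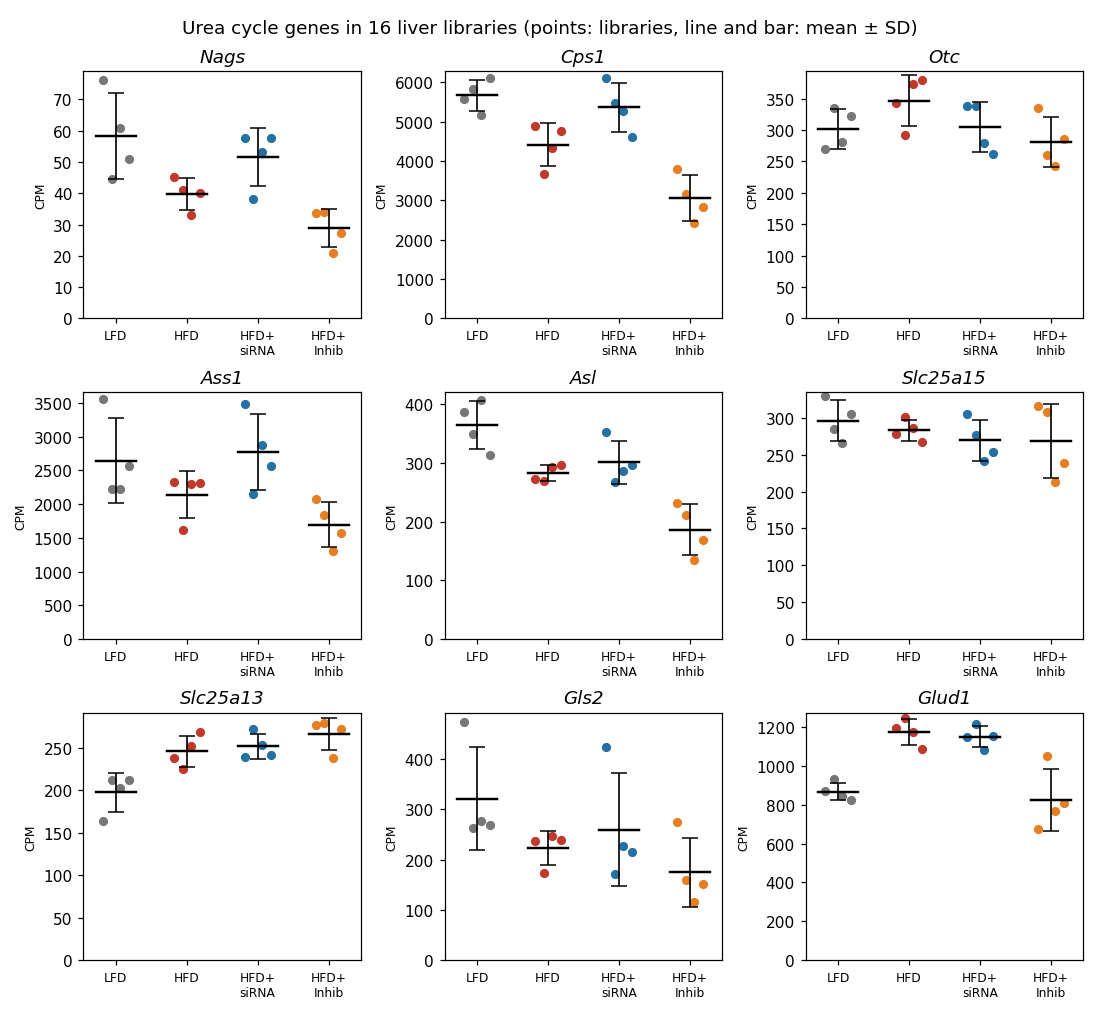
Level of each urea cycle gene (CPM, linear axes from 0) in the 16 libraries by group, with points for libraries and lines and bars for the mean ± SD of 4. The mean of Cps1, Asl and Nags is lowest in HFD + Inhib, that of Slc25a13 in LFD, and every HFD and HFD + siRNA library is above the others for Glud1.

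In the comparison of HFD with LFD, which asks what the diet changed under the control siRNA, 2 of the 9 genes rose, Glud1 and Slc25a13, and 1 fell, Nags. Of all genes tested, 9.58% were called higher and 8.8% lower at an adjusted p under 0.05. Glud1, which releases ammonia from glutamate, was at 870.0, 932.7, 845.5 and 827.4 CPM in LFD and at 1195, 1247, 1178 and 1088 in HFD. Every HFD library was above every LFD library, and the level rose by 35.4% (log2 fold change 0.44 ± 0.11, SE, adjusted p = 0.0147). Slc25a13 was at 163.4, 211.5, 202.6 and 212.2 CPM in LFD and at 237.6, 224.5, 252.1 and 267.9 in HFD, again with no overlap (0.31 ± 0.09, adjusted p = 0.0299). Nags was at 76.3, 44.6, 61.0 and 51.1 CPM in LFD and at 45.2, 41.1, 32.9 and 40.2 in HFD, where the highest HFD library overlapped the lowest LFD library (-0.55 ± 0.18, adjusted p = 0.0453). Here and in all that follows, bulk liver RNA cannot tell fewer hepatocytes apart from less RNA per hepatocyte.

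Cps1, Otc, Ass1 and Asl did not pass the test for diet. Cps1 was at 5582, 5832, 5171 and 6101 CPM in LFD and at 4881, 3674, 4321 and 4759 in HFD, and Asl was at 385.8, 349.4, 407.0 and 313.9 CPM and at 272.7, 269.3, 292.2 and 295.9. For both, every HFD library was below every LFD library, but the adjusted p was 0.0845 for Cps1 (-0.36 ± 0.14) and 0.0837 for Asl (-0.37 ± 0.14). Cps1 was called by DESeq2 (adjusted p = 0.0346) and Asl by edgeR with only these 2 groups (adjusted p = 0.0449). The other members gave -0.30 ± 0.19 for Ass1, 0.20 ± 0.12 for Otc, -0.07 ± 0.12 for Slc25a15 and -0.52 ± 0.29 for Gls2. The value of Otc became -0.20 after a correction for GC content and length. The median log2 fold change was -0.30 over the members and -0.01 over all genes.

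None of the 3 calls for diet was made in every setting. With 1 replicate of either group left out, Slc25a13 lost its call without HFD replicate 3 or 4 or LFD replicate 1 or 3. Its log2 fold change was then 0.24 to 0.33 (adjusted p 0.0541 to 0.0895). Nags lost its call without HFD replicate 2, 3 or 4 or LFD replicate 1 or 3 (-0.56 to -0.38, adjusted p 0.0727 to 0.172). With only the 2 compared groups neither was called (Slc25a13 adjusted p = 0.0786, Nags adjusted p = 0.0503), nor was Slc25a13 with no filter on low counts (adjusted p = 0.0536). Without LFD replicate 1, HFD replicate 2 and HFD + siRNA replicate 1 together, 0 of the 9 members were called (Glud1 0.41, adjusted p = 0.0822, Slc25a13 0.27, adjusted p = 0.0757, Nags -0.41, adjusted p = 0.214), while 1641 genes were called in place of 3370. With the GC and length correction only Glud1 was called, and Nags, whose transcript is 60.1% G or C against a median of 49.9% for genes tested, gave -0.29 (adjusted p = 0.0975).

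Between HFD + siRNA and HFD, 0 of the 9 members passed edgeR's test, 0 passed DESeq2's, and 0 had an unadjusted p under 0.05, where 5.2% of all genes were called higher and 6.55% lower. Ass1, which adds the second nitrogen as aspartate, was at 3490, 2150, 2877 and 2562 CPM in HFD + siRNA and at 2334, 1622, 2299 and 2311 in HFD. The groups overlapped, and the difference was 0.37 ± 0.19 on the log2 scale (95% interval -0.03 to 0.78). Cps1 was at 6103, 5479, 5260 and 4607 CPM in HFD + siRNA, where only the lowest library lay within the range of HFD (0.28 ± 0.14, interval -0.02 to 0.58). Nags was at 57.7, 38.1, 53.1 and 57.7 CPM (0.38 ± 0.18, interval -0.01 to 0.76). These intervals reach from about no difference to values larger than those called for Slc25a13 with diet, so an increase of that size was neither shown nor outside the intervals. Glud1 stayed at 1148, 1215, 1084 and 1156 CPM, inside or beside the HFD range (-0.03 ± 0.11), and Slc25a13 was at 239.5, 271.8, 253.5 and 241.7 CPM (0.04 ± 0.09). The median was 0.09 over the members and 0.02 over all genes.

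Against LFD, the HFD + siRNA livers were higher for Slc25a13 (0.35 ± 0.09, adjusted p = 0.0307) and Glud1 (0.41 ± 0.11, adjusted p = 0.0355), and lower for none, where 4.75% of genes were called higher and 3.88% lower. Both differences had no overlap between the groups, but Glud1 lost its call in each fit that left out 1 replicate of either group. Its log2 fold change was then 0.363 to 0.425 (adjusted p 0.0569 to 0.0970). Over these fits Slc25a13 gave 0.261 to 0.376, and lost its call in all except those without LFD replicate 2 or LFD replicate 4. Cps1 (-0.08 ± 0.14), Ass1 (0.07 ± 0.19), Nags (-0.17 ± 0.18) and Asl (-0.28 ± 0.14) did not pass. The median was -0.08 over the members and -0.01 over all genes.

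Between HFD + Inhib and HFD, 3 of the 9 members fell, Cps1, Asl and Glud1, and 0 rose, where 8.42% of all genes were called lower and 9.8% higher. Asl, which releases arginine and fumarate, was at 230.9, 210.4, 134.2 and 167.8 CPM with the inhibitor, all below the lowest HFD library, and fell by 34.2% (-0.60 ± 0.14, adjusted p = 0.00698). Glud1 was at 677.0, 1052, 767.3 and 808.0 CPM, also all below HFD (-0.51 ± 0.11, adjusted p = 0.00484), and close to LFD (-0.07 ± 0.11, adjusted p = 0.644). Cps1, the entry enzyme, was at 3802, 3150, 2412 and 2834 CPM, where the highest library passed the lowest of HFD (-0.53 ± 0.14, adjusted p = 0.0146). All 3 differences were called in each of the 8 fits that left out a replicate, but Glud1 was not without both HFD + Inhib replicates 1 and 3 (-0.33, adjusted p = 0.0898).

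Of the members without a call in this comparison, Nags was at 33.6, 34.0, 21.1 and 27.4 CPM (-0.46 ± 0.18, adjusted p = 0.0924) and Otc at 335.2, 260.4, 242.9 and 286.0 CPM (-0.30 ± 0.12, adjusted p = 0.104). Both were called lower after the GC and length correction (Nags -0.33, adjusted p = 0.0477, Otc -0.47, adjusted p = 0.00532), which brought the members called to 5. Otc was also called without HFD + Inhib replicate 1 (-0.40, adjusted p = 0.0412). Ass1 (-0.33 ± 0.19) and Gls2 (-0.35 ± 0.29) did not pass. The transporters Slc25a15 (-0.07 ± 0.12) and Slc25a13 (0.12 ± 0.09) did not pass either. The median was -0.35 over the members and -0.004 over all genes.

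**Figure D2:**
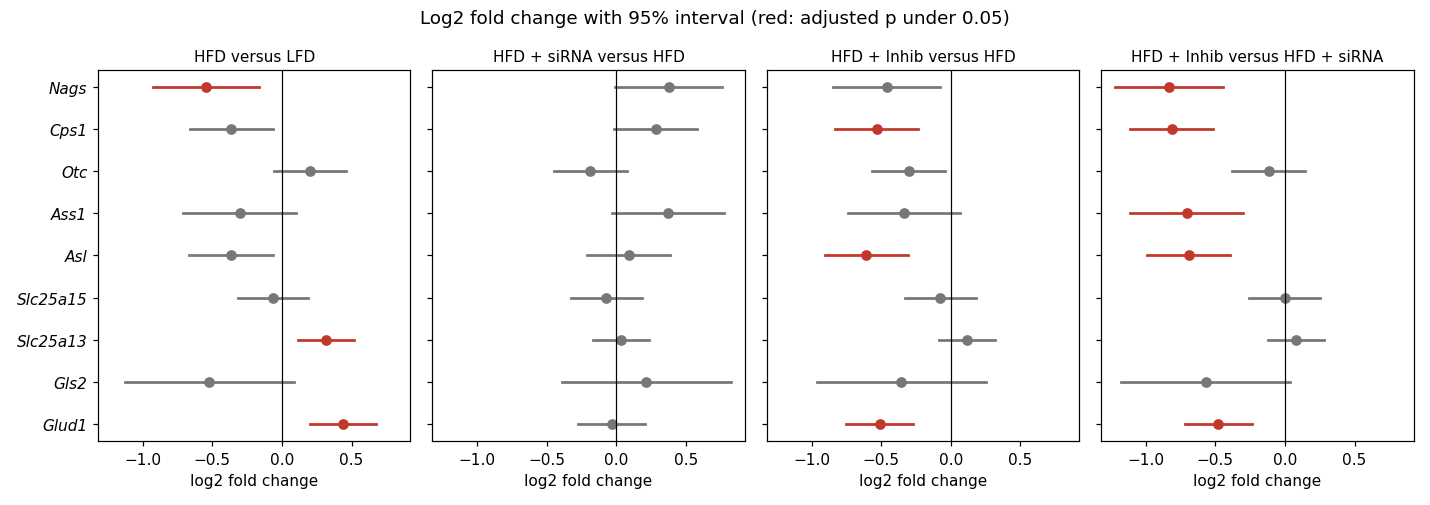
Log2 fold change of each urea cycle gene (points) with its 95% interval (lines) from edgeR in 4 comparisons, in red where the adjusted p is under 0.05. Red intervals lie above 0 for Slc25a13 and Glud1 in HFD versus LFD, and below 0 for Cps1, Asl and Glud1 in both comparisons of HFD + Inhib.

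The 2 ways of acting on KHK were compared directly, since both share the HFD group as their control. In HFD + Inhib relative to HFD + siRNA 5 members were lower, Cps1, Ass1, Asl, Nags and Glud1, and 0 higher, where 16.6% of all genes were called lower and 17.3% higher. Each of the 5 had all 4 HFD + Inhib libraries below all 4 HFD + siRNA libraries. Here and elsewhere, the share of all genes with no overlap between groups was not counted. Nags was 1.78-fold lower (-0.83 ± 0.18, adjusted p = 0.00235) and Cps1 1.76-fold lower (-0.81 ± 0.14, adjusted p = 4.24e-04). Ass1 was at 2080, 1844, 1302 and 1568 CPM with the inhibitor (-0.71 ± 0.19, adjusted p = 0.00976), Asl gave -0.69 ± 0.14 (adjusted p = 0.00151) and Glud1 -0.48 ± 0.11 (adjusted p = 0.00414). The 5 calls were also made without the 3 libraries of the other groups that stood apart, and with the GC and length correction. After that correction the differences were smaller for Nags (-0.53), Ass1 (-0.52) and Asl (-0.48), and larger for Cps1 (-0.92) and Glud1 (-0.53). Without HFD + Inhib replicates 1 and 3, Ass1 (-0.68, adjusted p = 0.0509) and Glud1 (-0.29, adjusted p = 0.0960) were not called. The median was -0.57 over the members and -0.04 over all genes.

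Slc25a13 (0.08 ± 0.09, 95% interval -0.12 to 0.28) and Slc25a15 (-0.002 ± 0.12, interval -0.26 to 0.25) did not pass between the 2 treatments, and these intervals leave out a decrease as large as the estimates for Cps1, Asl or Nags. The sign of both differences turned in at least 1 alternative, without a call. Gls2 was at 273.9, 159.4, 114.9 and 150.9 CPM with the inhibitor and at 423.4, 171.5, 227.0 and 215.0 with the siRNA (-0.57 ± 0.29, adjusted p = 0.138), and was called without HFD + Inhib replicate 1 (-0.86, adjusted p = 0.0284). Replicate 1 was the highest in both groups, and the interval from -1.18 to 0.04 was the widest of the members. Otc gave -0.12 ± 0.12 (adjusted p = 0.498) and, after the GC and length correction, -0.65 (adjusted p = 3.54e-04). Its transcript is 39.0% G or C, the lowest of the 9.

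Against LFD, the HFD + Inhib livers showed 5 members lower (Nags, Asl, Cps1, Gls2 and Ass1) and 1 higher (Slc25a13), where 18.2% of genes were called lower and 18.8% higher. The difference was -1.01 ± 0.18 for Nags (adjusted p = 5.16e-04), -0.97 ± 0.14 for Asl (adjusted p = 8.91e-05), and -0.90 ± 0.14 for Cps1 (adjusted p = 1.73e-04), with no overlap for these 3. After the GC and length correction the 3 values were -0.62, -0.73 and -0.98, and the 3 calls were kept. Slc25a13 was at 276.5, 278.5, 237.7 and 271.5 CPM, all above LFD (0.43 ± 0.09, adjusted p = 0.00225). Ass1 (-0.64 ± 0.19, adjusted p = 0.0158) and Gls2 (-0.88 ± 0.29, adjusted p = 0.0255) were called, but not with the GC and length correction (Ass1 -0.46, adjusted p = 0.0594, Gls2 -0.59, adjusted p = 0.112) nor without LFD replicate 1 (Ass1 -0.46, adjusted p = 0.0653, Gls2 -0.62, adjusted p = 0.104). Ass1 also lost its call without HFD + Inhib replicate 3 (-0.53, adjusted p = 0.0538). Without HFD + Inhib replicates 1 and 3 together Ass1 was not called either (-0.62, adjusted p = 0.0654). Gls2 lost its call without HFD + Inhib replicate 2, 3 or 4 (-0.84, -0.72 and -0.81, adjusted p = 0.0576, 0.0813 and 0.0678). Otc was called lower only with that correction (-0.68, adjusted p = 2.26e-04). The median was -0.64 over the members and -0.02 over all genes.

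Base composition moved with most of these comparisons. Over 8232 genes with a mean log2 CPM of at least 3, the Spearman correlation of fold change with GC content, a description across genes that are not independent, was -0.53 for HFD versus LFD, 0.51 for HFD + siRNA versus HFD, -0.27 for HFD + Inhib versus HFD, -0.54 for HFD + Inhib versus HFD + siRNA, -0.08 for HFD + siRNA versus LFD and -0.56 for HFD + Inhib versus LFD. The GC content of the members runs from 39.0% in Otc through 46.6% in Cps1, 48.4% in Glud1, 54.7% in Ass1, 55.5% in Asl and 56.6% in Gls2 to 60.1% in Nags. With the correction Cps1, Asl and Glud1 kept their calls in both HFD + Inhib comparisons with the other high-fat groups.

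**Figure D3:**
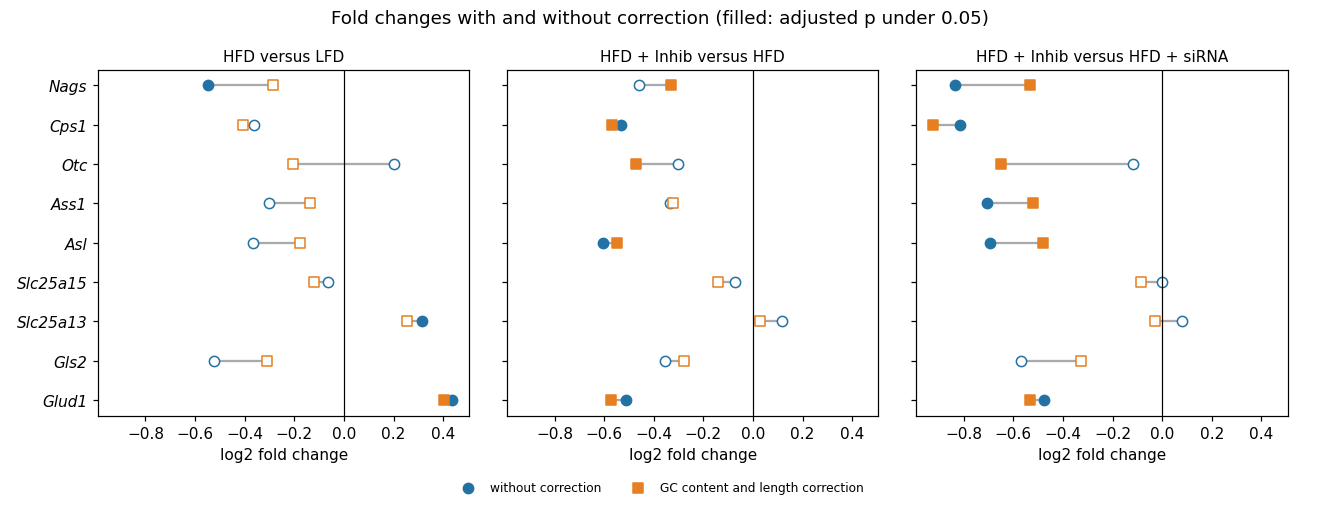
Log2 fold change of each urea cycle gene without correction (circles) and after correcting for GC content and length of the transcript (squares) in 3 comparisons, filled where the adjusted p is under 0.05. Otc moves furthest, from -0.12 to -0.65 in HFD + Inhib versus HFD + siRNA, and Nags moves toward 0 in all 3.

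Reads of some members can be divided with near copies. Of the 50-base words of Ass1, 38.6% also occur in Gm5424, which was at 137.9, 112.4, 141.8 and 91.7 CPM on average in the LFD, HFD, siRNA and inhibitor groups, and of those of Glud1, 6.49% occur elsewhere, mostly in Glud-ps (7.80, 14.2, 11.7 and 11.8 CPM). Adding the counts of these copies to Ass1 and Glud1 changed no call. Nags overlaps Gm11586 and Gls2 overlaps Spryd4 on the opposite strand, and whether the counting used strand is not stated, so their levels are uncertain to that extent.

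The genes whose levels followed Cps1 most closely over the 16 libraries, among 8575 with a mean log2 CPM of at least 3, were F7 (coagulation factor VII, Pearson r = 0.95, Spearman 0.89), Serpind1 (heparin cofactor II, 0.93 and 0.88) and H4c14 (a histone gene, 0.92 and 0.81). With group means removed these 3 gave 0.78, 0.79 and 0.73. F7 was at 72.2 ± 2.64 CPM in LFD, 49.7 ± 6.47 in HFD, 57.2 ± 6.67 with the siRNA and 29.1 ± 6.05 with the inhibitor. Among the members Asl was nearest to Cps1 (0.90, rank 15) and Slc25a13 farthest (-0.43). This order did not hold with group means removed. Otc was then nearest (0.80, Asl 0.59), Glud1 was farthest (-0.19) and Slc25a13 gave 0.45. Ass1 was followed by its near copy Gm5424 (0.96), by Agxt (alanine-glyoxylate aminotransferase, 0.94) and Gnmt (glycine N-methyltransferase, 0.94), and then by Gls2 (0.89, rank 4). These values carry no test, and the libraries share their depth and composition.

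Other enzymes of amino acid nitrogen were read as a list of 17, which holds enzymes that release or pass on nitrogen and also Glul, which takes up ammonia into glutamine in pericentral hepatocytes. The counts of this and the following lists stand beside the shares of all genes given above, which were 9.58% higher and 8.8% lower for diet, 5.2% and 6.55% for siRNA relative to HFD, 9.8% and 8.42% for inhibitor relative to HFD, 17.3% and 16.6% for inhibitor relative to siRNA, 4.75% and 3.88% for siRNA relative to LFD, and 18.8% and 18.2% for inhibitor relative to LFD. A count near these shares says nothing particular about a list. For diet 2 rose and 2 fell (median log2 fold change -0.01), led by Glul (1.23 ± 0.23, adjusted p = 0.00243), while Hal, which opens histidine breakdown, fell (-0.78, adjusted p = 0.0120), as did Sdsl (-1.11, adjusted p = 0.0425), and Dld, a subunit shared with the glycine cleavage system, rose (0.44). With siRNA relative to HFD 2 rose, Gpt2 (0.45) and Amt (0.40). With the inhibitor relative to HFD 2 rose and 2 fell (median -0.03). Prodh, the first enzyme of proline breakdown, fell from 135.0 ± 21.9 to 55.8 ± 12.1 CPM (-1.27, adjusted p = 6.98e-05) and Gldc of the glycine cleavage system fell (-0.51), whereas Gpt2, mitochondrial alanine aminotransferase, rose (0.61, adjusted p = 0.00180) and so did Dld (0.38). Between inhibitor and siRNA 1 of the 17 was higher and 5 lower (median -0.29), against LFD the siRNA gave 1 higher and 0 lower, and the inhibitor 4 higher and 5 lower.

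Of 14 carriers and suppliers of substrate, 13 were tested. Slc1a2, a glutamate transporter of pericentral hepatocytes, rose with diet (1.11, adjusted p = 0.00152) and fell with the inhibitor relative to HFD (-0.93, adjusted p = 0.00302). Slc25a12, the other mitochondrial aspartate carrier beside Slc25a13, fell with the inhibitor (-0.44, adjusted p = 0.0144), from 13.4 to 9.85 CPM. Aqp9, a channel for glycerol and urea, rose with diet (0.49). In all, 2 rose and 0 fell for diet (median -0.03), 0 and 0 by edgeR for siRNA relative to HFD (0.04, with 1 at an unadjusted p under 0.05 and 0 called by DESeq2), 0 and 2 for inhibitor relative to HFD (-0.25), 0 and 3 for inhibitor relative to siRNA (-0.23), 2 and 1 for siRNA relative to LFD (0.26), and 1 and 1 for inhibitor relative to LFD (-0.01).

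Genes that use ornithine and arginine outside the cycle moved in both directions. Oat, which turns ornithine toward glutamate, was at 423.5 CPM in LFD and 1052 in HFD (1.31, adjusted p = 0.00256). It was at 1718 in HFD + siRNA and 657.8 in HFD + Inhib (-1.39 between the 2 treatments, adjusted p = 5.62e-04). Relative to HFD it passed with neither the siRNA (0.71, adjusted p = 0.0731) nor the inhibitor (-0.68, adjusted p = 0.0675). With the inhibitor relative to HFD, Odc1, the first enzyme of polyamine synthesis, rose (0.68, adjusted p = 0.00140), as did Ddah1, which clears methylated arginines (0.71), while Agmat fell (-0.56). Of the 9 tested of 12, 1 rose for diet, 0 passed edgeR for siRNA relative to HFD (3 at an unadjusted p under 0.05 and 2 called by DESeq2), 2 rose and 1 fell for inhibitor relative to HFD, 3 and 3 for inhibitor relative to siRNA, 1 rose for siRNA relative to LFD, and 2 rose and 1 fell for inhibitor relative to LFD.

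Among 14 regulators linked to nitrogen metabolism, Sirt5, a mitochondrial deacylase that acts on CPS1, rose with the inhibitor relative to HFD (0.53, adjusted p = 0.00162), from 10.5 to 15.2 CPM, while Cps1 fell. Ppara, the fatty acid receptor, rose with diet (0.81, adjusted p = 7.57e-04), and so did Fgf21, a hormone of the liver (2.26, adjusted p = 0.00577), reaching 7.63 CPM in HFD. Relative to the siRNA, Sirt5 (0.62), Creb1 (0.45) and Ppara (0.42) were higher with the inhibitor. Hnf4a, a hepatocyte transcription factor, was lower with the inhibitor than with the siRNA (-0.40, adjusted p = 0.00267). By comparison, 2 rose and 0 fell for diet, 0 and 1 for siRNA relative to HFD (Creb1, -0.40), 1 and 0 for inhibitor relative to HFD, 3 and 3 for inhibitor relative to siRNA, 1 and 0 for siRNA relative to LFD, and 4 and 3 for inhibitor relative to LFD. Of Fh1, Mdh1 and Mdh2, which handle fumarate and malate, only Mdh2 passed in any comparison, higher with the inhibitor than in HFD (0.45, adjusted p = 0.0183).

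The summed level of general hepatocyte markers was lowest with the inhibitor, as was that of the urea cycle genes. The 9 hepatocyte markers tested, of 10 listed, summed to 86200 ± 8050 CPM in LFD, 75900 ± 6470 in HFD, 80920 ± 4890 with the siRNA and 51870 ± 2070 with the inhibitor. Of these sums Alb, albumin, made up 57220, 50980, 53470 and 29930. Of the 9 tested, 2 were lower with the inhibitor than in HFD (Alb -0.77, adjusted p = 7.61e-04, and Ttr, transthyretin, -0.93), where 8.42% of all genes were lower, while Apob (-0.01), Tat (0.24), Apoa1 (-0.27), Fgb (-0.24), Serpinc1 (-0.18), Asgr1 (-0.38) and Asgr2 (-0.11) did not pass. Between inhibitor and siRNA 5 were lower with the inhibitor. For diet 3 were lower (Apoa1 -0.50, Serpinc1 -0.40 and Asgr2 -0.39), with siRNA relative to HFD 1 was higher (Asgr2, 0.26), and with the inhibitor relative to LFD 7 were lower. The 12 periportal markers, the zone in which the cycle is most active, summed to 5115 ± 340, 3872 ± 548, 4248 ± 588 and 3240 ± 579 CPM in the same order, led by Pck1. For diet 2 of them fell (Cyp2f2 -1.37, adjusted p = 1.72e-04, and Hal). With the inhibitor relative to HFD 2 fell (Pigr, -0.62, and Cdh1, E-cadherin, from 80.2 to 47.7 CPM, -0.75, adjusted p = 0.0207). With the siRNA relative to HFD 1 rose (Cyp2f2, 0.65, adjusted p = 0.0248) and 1 fell (again Cdh1, to 32.6 CPM, -1.30, adjusted p = 0.00182). The 13 pericentral markers summed to 5705 ± 1470, 9257 ± 1160, 7770 ± 820 and 8598 ± 1350 CPM. Cyp2e1 alone made up 3532, 5284, 3371 and 6323 of these, so the sums largely follow this 1 gene. For diet 5 were higher (Lect2 1.62 the furthest, then Oat, Glul and Slc1a2 as above) and 1 lower, with the siRNA relative to HFD 1 was higher (Cyp1a2, 0.82), and with the inhibitor relative to HFD 7 were lower (Gulo -1.79, Lect2 -1.61, Lgr5 -1.36 and Cyp1a2 -1.06 the furthest). With the inhibitor relative to the siRNA, 1 periportal marker was higher and 4 were lower, and 1 pericentral marker was higher and 9 were lower. Relative to LFD, 0 periportal markers were higher and 6 lower with the inhibitor, and 0 higher and 3 lower with the siRNA. Of the pericentral markers, 1 was higher and 4 lower with the inhibitor relative to LFD, and 4 higher and 0 lower with the siRNA. The part of zonation or of hepatocyte number in the differences of the urea cycle genes was not tested.

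Markers of other liver cells were low beside these. The 8 macrophage markers summed to 263.0, 253.6, 303.2 and 195.6 CPM in the same order (led by Clec4f, which fell with the inhibitor relative to HFD, -0.51, adjusted p = 0.00756), the 8 stellate cell markers to 278.3, 343.2, 373.2 and 255.8 (led by Reln, -0.66, adjusted p = 2.51e-04) and the 8 endothelial markers to 385.8, 335.6, 380.6 and 325.8 (led by Stab2). The 8 cholangiocyte markers summed to 36.9, 38.9, 36.9 and 39.6 CPM (led by Spp1) and the 8 lymphocyte markers to 3.52, 4.50, 3.08 and 1.85 (led by Cd79a). For diet 2 stellate markers (Hgf 0.78 and Reln 0.38) and 1 cholangiocyte marker (Spp1, 0.62) were higher, and relative to LFD 1 macrophage marker (Cd68, 0.50) and 1 stellate marker (Reln, 0.49) were higher with the siRNA. With the inhibitor relative to HFD 2 macrophage (Clec4f and Cd5l, -0.55), 3 stellate (Reln, Hgf -0.52 and Pdgfrb -0.45) and 3 lymphocyte markers (among them Ms4a1, -2.31) were lower and 1 endothelial marker higher (Lyve1, 0.86), and of the 5 sums only that of the cholangiocyte markers was not lower in HFD + Inhib than in HFD. With the inhibitor relative to the siRNA, 5 macrophage, 2 stellate, 2 endothelial and 2 lymphocyte markers were lower, and 1 endothelial and 1 cholangiocyte marker higher. Against LFD the inhibitor gave 3 macrophage, 2 stellate, 3 endothelial and 2 lymphocyte markers lower, and 1 endothelial and 1 cholangiocyte marker higher. The part of these cells in the differences of the urea cycle genes was not tested.

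**Figure D4:**
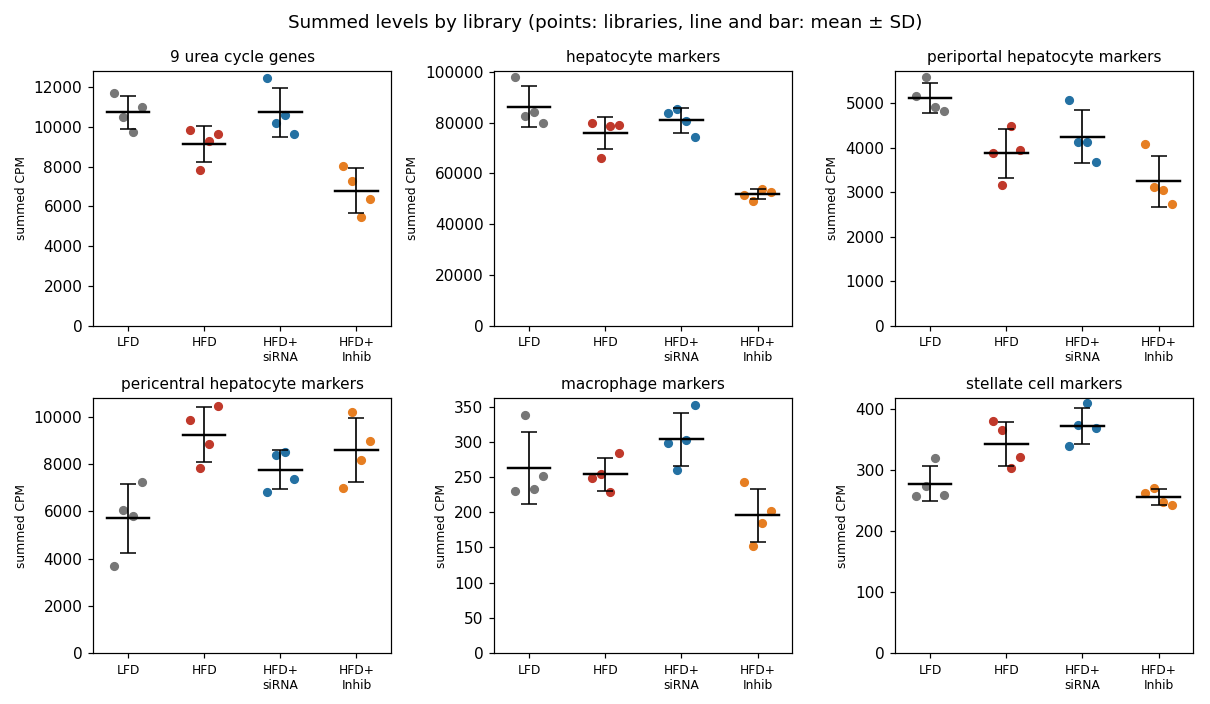
Summed CPM (linear axes from 0) of the 9 urea cycle genes and of 5 marker lists in the 16 libraries, with points for libraries and lines and bars for the mean ± SD of 4. The urea cycle sum lies between 5446 and 8023 CPM in HFD + Inhib, where the hepatocyte markers are also lowest (49160 to 54000 CPM).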

How the data were processed

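Liver RNA-Seq of 16 mice was analysed, with groups and replicate numbers from the labels. The authors deposited expected counts per gene symbol, as RSEM estimates them, with no scaling between libraries, and 15.1% of the values are not whole numbers. The submitters' processing notes name STAR, RSEM and the mm39 build, and the versions and the annotation are not given in the sources used here. The study's methods name a probe-counting assay (HTG EdgeSeq) for the RNA-Seq, which does not match such counts, so which assay made the table was not settled. What is said of GC content, length and shared words holds only for reads along transcripts.

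Expected counts were rounded to whole numbers, and the 16 libraries summed to between 24317111 and 35820234 (median 29570114). Of 33142 genes with any count, 18335 were kept by edgeR's filterByExpr with a minimum count of 10 and a minimum total of 15. The 6 comparisons were tested by edgeR's quasi-likelihood test in 1 fit of all 16 libraries, with TMM scaling and Benjamini-Hochberg adjustment over all genes tested at a threshold of 0.05. P-values set a difference against the spread between samples within groups as labelled, estimated over all 4 groups together. SE are from the F statistic and intervals are at 95%. The transcripts of GENCODE M21 (GRCm38) gave GC content and length, for 86.5% of the genes tested and all 9 members, and the words of 50 bases shared between genes. The correction for GC content and length fits a trend with 5 degrees of freedom per library as offsets. R 4.3.3, edgeR 4.0.16, limma 3.58.1 and DESeq2 1.42.0 were used, and the code was tested on simulated data. The alternatives were DESeq2, its RLE size factors, no filter and a stricter one, only the compared groups, the replicate block, each replicate left out, a threshold of 0.01 and the GC and length correction.

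The members and lists were chosen with earlier results of these data known, and 1 further gene of the chosen set and some genes of the lists are not reported here. Named are the 9 members, Khk, from each list at most 4 called genes without overlap between groups in order of fold change, for diet and for each treatment relative to HFD (for the other comparisons the lists are given mainly as counts), and the 3 genes most like Cps1 and Ass1 by Pearson r of log2 CPM. Mdh2, Spp1, Cd68, Cdh1 for inhibitor relative to HFD and the hepatocyte markers without a call were named after their values were seen. Regulators called without overlap between groups are also named for inhibitor relative to siRNA. The lists were amino acid nitrogen, carriers and bicarbonate, ornithine and arginine use, regulators, fumarate and malate, and markers of hepatocytes (general, periportal, pericentral), macrophages, stellate cells, endothelial cells, cholangiocytes and lymphocytes. Slc1a2, Oat, Glul, Hal, Sds, Tat and Rhbg each stand in more than 1 list. Replicates of a group were checked for repeated libraries, and none was found. Deviations of same-numbered libraries of different groups gave r from -0.34 to 0.49 (24 pairs, median 0.09), against a median of -0.055 over 72 pairs with different numbers. Since not every same-numbered pair was over 0.1, numbers were not taken to pair the libraries.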

Additional observations from a re-analysis of the deposited data

Results flagged for a closer look

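3 of 40 groups of 4 values, over 10 genes and 4 groups, held a library whose gap to its nearest neighbour, as a share of the group's whole range, passed Dixon's 95% critical value, and chance flags about 1 in 20 groups. Ass1 was at 1622 CPM in HFD replicate 2, where the nearest of the other libraries was at 2299 (0.95 of the range). Gls2 was at 172.4 CPM in the same library, with the nearest at 237.2 (0.878). Gls2 was at 474.1 CPM in LFD replicate 1, with the nearest at 277.2 (0.93). Without HFD + siRNA replicate 1 the difference of Gls2 between HFD + siRNA and HFD went from 0.21 to -0.14 on the log2 scale.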

How the results depend on the processing

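Of 999 values of single urea cycle genes under the alternatives, 901 had the direction and the side of the threshold reported, 56 lost their call, 9 gained one and 33 turned their sign, and each turned value was without a call both ways. The alternatives without 3 libraries and without HFD + Inhib replicates 1 and 3, and that with counts of near copies added, were chosen after seeing the data. The cause of a changed call was not tested, but fits with fewer libraries have fewer degrees of freedom. At an adjusted p under 0.01, genes called were 1287 for HFD versus LFD, 689 for HFD + siRNA versus HFD, 1733 for HFD + Inhib versus HFD, 3711 for HFD + Inhib versus HFD + siRNA, 566 for HFD + siRNA versus LFD and 4123 for HFD + Inhib versus LFD, and urea cycle genes called were 0 for HFD versus LFD and 0 for HFD + siRNA versus LFD. With the GC content and length correction, 1416 genes were called for HFD + siRNA versus HFD, and 5 urea cycle genes (of 3291 genes) for HFD + Inhib versus HFD and 1 (of 2411) for HFD versus LFD. Without LFD 1, HFD 2 and HFD + siRNA 1, 1641 genes were called for HFD versus LFD and 877 for HFD + siRNA versus LFD, and 0 urea cycle genes in both. Without HFD + Inhib replicates 1 and 3, 1797 genes were called for inhibitor relative to HFD, 3789 relative to siRNA and 4423 relative to LFD, and 3 urea cycle genes relative to siRNA, and signs turned for Glud1 relative to LFD (0.113) and Slc25a15 relative to siRNA (0.0403). With only the 2 compared groups, 808 genes and 1 urea cycle gene were called for HFD + siRNA versus LFD, and with no filter 0 urea cycle genes. DESeq2 called 4 urea cycle genes for HFD versus LFD, adding Cps1.

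With 1 replicate left out, genes called were 2001 to 3691 for HFD versus LFD, 1100 to 1981 for HFD + siRNA versus HFD and 965 to 1456 for HFD + siRNA versus LFD, and urea cycle genes called were 1 to 3 for HFD versus LFD and 0 to 1 for HFD + siRNA versus LFD. The log2 fold change of siRNA relative to HFD then ranged from -0.0120 to 0.121 for Asl, -0.142 to 0.348 for Gls2 and -0.0242 to 0.0627 for Slc25a13. That of siRNA relative to LFD ranged from -0.0746 to 0.233 for Ass1 and -0.0565 to 0.0694 for Otc, and that of inhibitor relative to LFD from -0.211 to 0.0144 for Glud1. For Slc25a15 it ranged from -0.163 to 0.0218 for inhibitor relative to HFD and from -0.0736 to 0.0941 for inhibitor relative to siRNA. With the GC content and length correction, signs turned for Otc (-0.204 for diet, 0.176 for siRNA relative to HFD, -0.0286 for siRNA relative to LFD), for Asl (-0.0710 for siRNA relative to HFD), and for Slc25a13 (-0.0299) for inhibitor relative to siRNA. Without the 3 libraries they turned for Asl (-0.0191) and Gls2 (-0.233) for siRNA relative to HFD, for Otc (-0.0911) for siRNA relative to LFD and for Slc25a15 (0.0614) for inhibitor relative to siRNA. There Slc25a15 was also above 0 with DESeq2 (0.0105), RLE size factors (0.00975), a minimum of 10 counts in every library (0.0126), no filter (0.00877) and only the 2 compared groups (0.00601).

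With the replicate number as a block, 3299 genes were called for HFD versus LFD, 2080 for HFD + siRNA versus HFD and 3341 for HFD + Inhib versus HFD, and the block changed 1 call of a urea cycle gene, that of Gls2 for inhibitor relative to siRNA (-0.55, adjusted p = 0.0253). Of the 24 same-numbered pairs, 11 correlated over 0.1, as did 20 of the 72 pairs with different numbers, and 8 of 16 libraries correlated best with their own number. The labels give no shared litter, batch or day, so these libraries were taken to share only a number. With 4 libraries per group, differences as small as those of Ass1 or Gls2 after siRNA could not be shown against the spread of these genes.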
